A study of Canis lupus familiaris with 37 samples.

Results

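CLBL-1 is a cell line grown from a canine diffuse large B-cell lymphoma, and CLBL-1M is its derivative, recovered from a mouse xenograft of CLBL-1. RNA sequencing counts were deposited for 10 libraries of these lines, 5 titled CLBL-1 and 5 titled CLBL-1M, within a series of 37 libraries that also held 12 B-cell lymphomas, 4 non-neoplastic canine lymph nodes as controls, 4 lymphomas called probable T-cell, and 7 libraries of the T-cell lines OSW and CL-1 and the B-cell line GL-1. The 3 libraries described here were chosen by a measured value, as those of the 10 with the lowest number of reads counted on genes. They were CLBL-1M replicate 2 (1980761 reads), CLBL-1 replicate 3 (2319126 reads) and CLBL-1 replicate 1 (2474777 reads). The other 7 libraries ranged from 2684136 to 3414487 reads. All 10 came from untreated cells of one lineage in the same medium, so no labeled condition separates the 3 from the 7.

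The names of the libraries limit what the titles can carry. The data names give each library a P number that the labels do not explain (5, 74 and 15 in the 3, and 17 to 78 in the 7), and these names exchange CLBL-1 and CLBL-1M relative to the titles. The titles were used throughout. The 3 libraries carry both titles, as do the 7. Their P numbers 5 and 15 are the lowest of the 10 and the lowest in CLBL-1M and CLBL-1. The third, 74, lies between 22 and 75 in the 7. The P numbers are thus not balanced over the split, and their part in it was not tested. The labels do not say whether replicates were separate cultures. Marker genes of B cells could not be looked up by symbol, so the cell type rests on the labels.

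A lymphoma line in culture consists of cells at all stages of the division cycle. Before S phase, origin recognition and helicase loading proteins license the DNA, replication then needs polymerases, clamp and clamp loader proteins, and in mitosis the kinetochores attach chromosomes to the spindle and the sister chromatids part. Transcripts of these genes are periodic and are more abundant in populations with more dividing cells. B cells also express MHC class II molecules, which present peptides to T helper cells, and the B cell receptor with its signaling proteins. In counts of a bulk culture, fewer cells of one kind and less RNA per cell cannot be told apart.

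In the 3 libraries, most measured genes of DNA replication (24 of 32) and of mitosis (19 of 28) were lower than in any of the 7, mostly by less than 2-fold. Fewer genes of the MHC protein complex (5 of 12) were higher than in any of the 7, and 0 of them by 2-fold. Over all measured genes, 12.4% were lower and 7.95% higher in this way. MHC genes are abundant, and 5 of the 12 were among the 100 genes with the highest level, of which 41 were higher. Summed over the measured members, replication genes differed by −35.6% and mitosis genes by −34.2%, while the MHC protein complex differed by 27.4%, and none of these sums overlapped between the 3 and the 7. Levels are in CPM, the count of a gene scaled to a common library size, after each library had been reduced at random to 1980761 gene counts. Since the members were selected on these same libraries, all values of the 3 against the 7 are a description without a test.

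Among the 10172 genes with a mean of at least 10 reduced counts, 809 (7.95%) were higher in each of the 3 than in any of the 7, and 1263 (12.4%) were lower. These shares rose with the level of the genes. In 5 equal bins ordered by mean CPM, 4.62%, 5.41%, 6.19%, 7.96% and 15.6% were higher from the lowest bin to the highest, and 6.04%, 9.44%, 14.6%, 15.9% and 16.1% were lower. Of the 100 genes with the highest mean CPM, 41 were higher and 8 lower, with a median log2 ratio of 0.22. With a difference of at least 2-fold in the mean as well, 105 genes (1.03%) were apart on the higher side and 220 (2.16%) on the lower side. The log2 ratio of the mean CPM, 3 over 7, had a median of −0.08 over all genes, with 5th and 95th percentiles of −0.86 and 0.63. The genes apart held a small part of the RNA. Those higher made up 1.08% of the counts in the 3 and 0.438% in the 7, and those lower 0.634% and 1.53%. Within the 3, 288 of the 325 genes apart had values within 2-fold of each other, and within the 7, 173 had. A range over 7 values tends to be wider than one over 3, so these counts do not compare the spread of the sets.

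**Figure D1:**
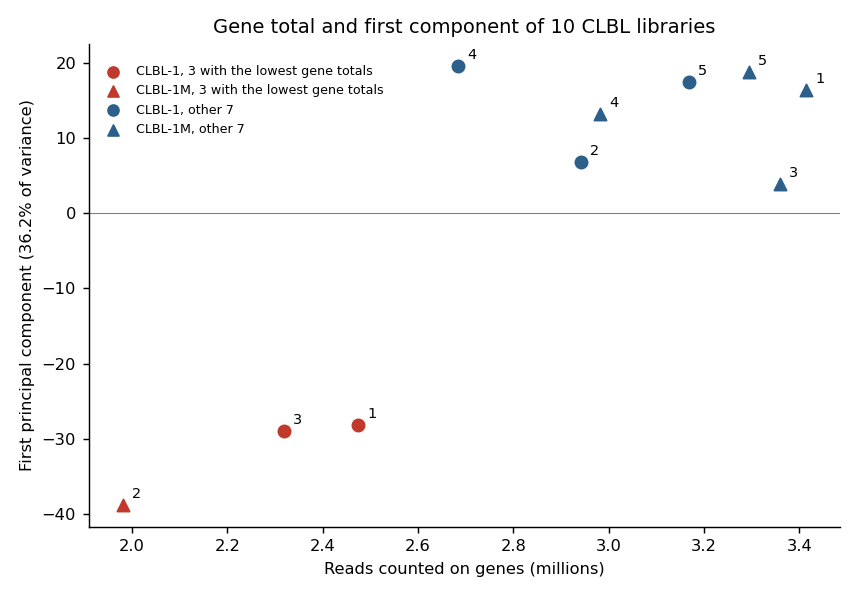
First principal component of log2(CPM + 1) over 10172 genes (vertical axis, 36.2% of the variance) against the reads counted on genes (horizontal axis) for 10 libraries, with replicate numbers beside the points. The 3 libraries with the lowest totals lie between −38.8 and −28.2, and CLBL-1 replicate 4, with the next higher total, lies at 19.6, the highest value.

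The 3 libraries were nearer to each other than to any of the 7. The Euclidean distance of log2(CPM + 1) over the 10172 genes had a mean of 38.8 and a maximum of 44.1 within the 3, and ran from 49.6 to 70.9 between the 3 and the 7 and from 34.5 to 60.7 within the 7. The nearest library to each of the 3 was another of the 3. The nearest library to CLBL-1M replicate 2 was CLBL-1 replicate 1, at a distance of 42.3, a library of the other title. On the first principal component (36.2% of the variance), CLBL-1M replicate 2 lay at −38.8, CLBL-1 replicate 3 at −29.0 and CLBL-1 replicate 1 at −28.2, and the 7 lay between 3.84 and 19.6. On the second component (19.0%), the 3 lay between −3.46 and 3.04, inside the range of the 7 from −22.9 to 30.4.

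Within the 3, the first component rose with the total, from −38.8 at 1980761 reads to −28.2 at 2474777 reads. Over all 10, it did not order the libraries by their totals. The gene total set the split, so its part cannot be told apart. CLBL-1 replicate 1, just inside the rule with 2474777 reads, had a first component of −28.2, and CLBL-1 replicate 4, just outside with 2684136 reads, had 19.6, the farthest of the 7 from the 3. The library of the 7 with the lowest first component, CLBL-1M replicate 3 at 3.84, had a total of 3359857. The 325 genes apart, which the split itself chose, also placed it closest to the 3. On a scale where the mean of the 7 is 0 and the mean of the 3 is 1, its median position over these genes was 0.175, against −0.106 to 0.0522 in the other 6. By mean distance over all 10172 genes, CLBL-1 replicate 2 was instead the closest of the 7 to the 3. Its mean distance was 54.3, against 55.2 for CLBL-1M replicate 3.

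The DNA replication genes were taken from 3 lists in the functional tables of the study, named DNA replication (a keyword and a KEGG pathway) and DNA replication initiation, and comprised 34 genes, of which 32 passed the filter on low counts. The study chose these lists, like all lists below, from genes that differed from the controls in its own samples, CLBL libraries included, so their direction here is not independent evidence. Of the 32 genes, 24 were lower in all of the 3 than in any of the 7 and 0 were higher, against 12.4% and 7.95% of all genes and 16.1% and 15.6% in the highest level bin, which held 13 of them. At least 2-fold lower without overlap were 4 of 32, against 2.16% of all genes. Their median log2 ratio was −0.62, and 28 of 32 ratios were below 1. The summed level was 3451 CPM in CLBL-1M replicate 2, 3542 CPM in CLBL-1 replicate 1 and 3630 CPM in CLBL-1 replicate 3. In the 7, the lowest sum was 4934 CPM, the median 5351 CPM and the highest 6381 CPM. The means were 3541 ± 89.9 CPM (SD, n = 3) and 5502 ± 463 CPM (SD, n = 7).

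Genes of replication initiation, whose products load and start the replicative helicase, had the larger difference among the replication lists. All 16 passed the filter, 13 were lower without overlap (12.4% of all genes), 0 were higher (7.95% of all genes), and the median log2 ratio was −0.73 (range −1.30 to −0.15). In the KEGG list, 16 of 18 were lower without overlap and 0 were higher, with a median of −0.66. In the keyword list, 14 of 18 were lower and 0 higher, with a median of −0.57. The lists share genes. The replication gene with the largest difference, at a log2 ratio of −1.30, had 13.1, 9.09 and 12.1 CPM in CLBL-1M replicate 2, CLBL-1 replicate 3 and CLBL-1 replicate 1, and 20.2 to 34.3 CPM (median 29.3) in the 7. A more abundant one, at −1.02, had 139, 183 and 155 CPM in the 3 and 261 to 426 CPM (median 311) in the 7. Both gaps were wide, with the highest of the 3 well under the lowest of the 7.

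Mitosis genes came from the lists of the condensed chromosome kinetochore and of mitotic sister chromatid segregation, which together held 28 genes, none of them in the replication lists. All 28 passed the filter, 19 were lower without overlap and 0 were higher, against 12.4% and 7.95% of all genes, and their median log2 ratio was −0.57. At least 2-fold lower without overlap were 3 of 28, against 2.16% of all genes. The summed level was 2158 CPM in CLBL-1M replicate 2, 2236 CPM in CLBL-1 replicate 3 and 2282 CPM in CLBL-1 replicate 1. The 7 ranged from 3208 to 3566 CPM with a median of 3376 CPM. This range was narrow, since the means were 2226 ± 62.8 CPM (SD, n = 3) and 3384 ± 124 CPM (SD, n = 7).

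Chromatid segregation genes, which part the sister chromatids at anaphase, had a median log2 ratio of −0.79, with 13 of 14 lower without overlap and 0 higher (12.4% and 7.95% of all genes). Kinetochore genes, which hold chromosomes on the spindle, had a median of −0.48, with 10 of 18 lower and 0 higher. They were not uniform, as their ratios ran from −1.20 to 0.77 and 3 of 18 were above 1. The mitosis gene with the largest difference (log2 ratio −1.20) had 18.7, 25.2 and 24.2 CPM in CLBL-1M replicate 2, CLBL-1 replicate 3 and CLBL-1 replicate 1, against 44.4 to 65.1 CPM in the 7. SHCBP1 (ENSCAFG00000003704), which binds the adaptor Shc and is expressed in dividing cells, had 82.3, 83.8 and 76.7 CPM in the same order of libraries. In the 7 it had 99.5 to 130 CPM with a median of 116 CPM, so that the ranges did not overlap and the log2 ratio of the means was −0.51.

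**Figure D2:**
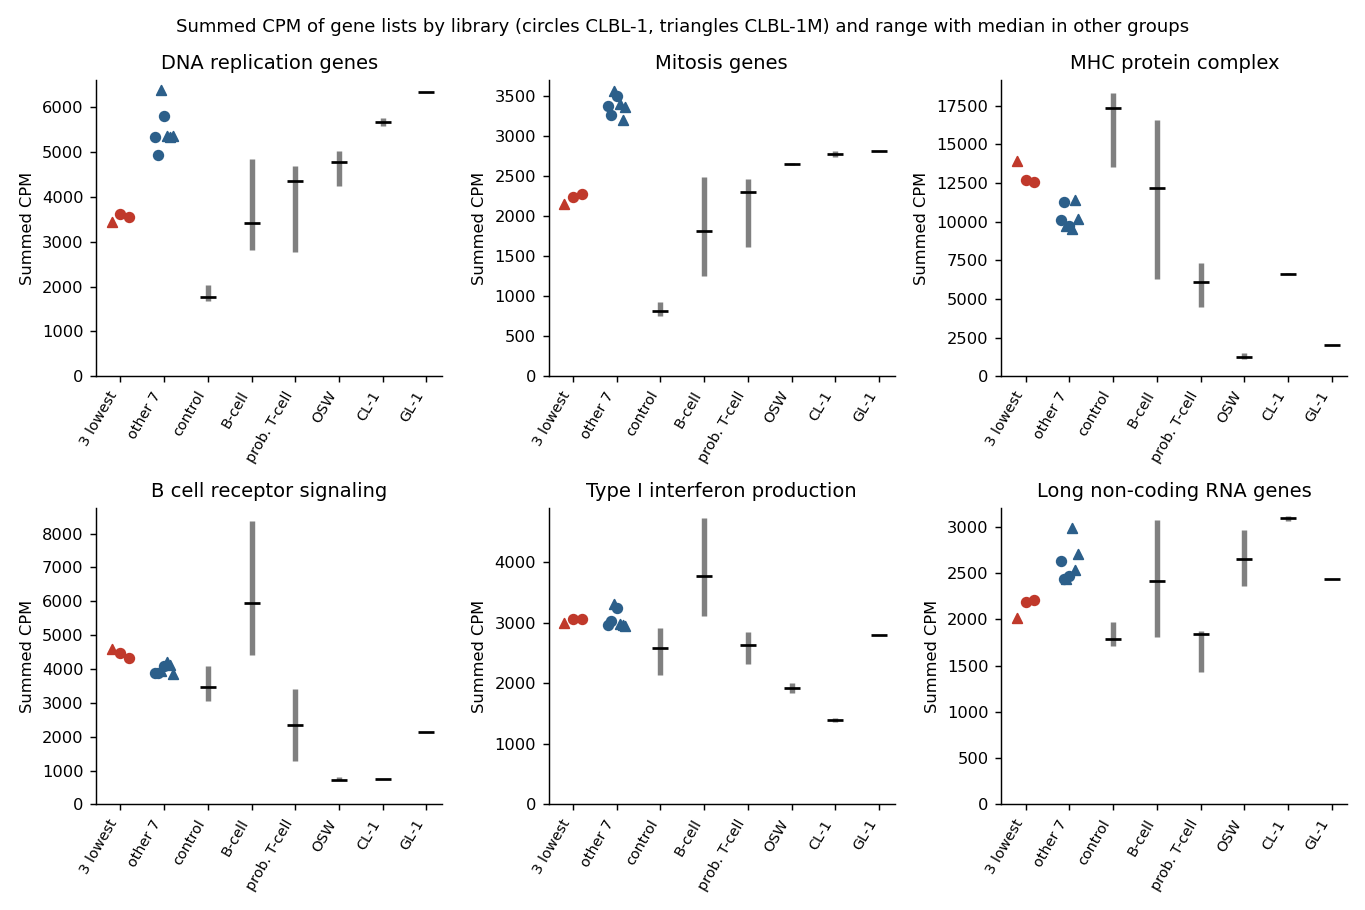
Summed CPM of the measured members of 6 gene lists (vertical axes from 0) in the 3 libraries with the lowest totals, in the other 7 and, as ranges with the median, in the remaining groups. The replication sums of the 3 libraries lie between 3451 and 3630 CPM, under the 7 and under the OSW, CL-1 and GL-1 libraries but above the controls.

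Beside the other groups of the series, the 3 libraries lay above the controls and under the other lines for both lists. Replication genes, summed over the same 32 genes, ranged from 1672 to 2031 CPM in the 4 controls and from 2820 to 4848 CPM in the 12 B-cell lymphomas. The 4 probable T-cell lymphomas had 2762 to 4697 CPM. The 3 libraries lay inside the ranges of both kinds of lymphoma, and the 7 above them. The other lines had 4244 to 5017 CPM (OSW, n = 4), 5585 and 5772 CPM (CL-1, n = 2) and 6335 CPM (GL-1, n = 1), all above the 3 libraries. For mitosis genes the controls had 747 to 927 CPM, the B-cell lymphomas 1252 to 2494 CPM and the probable T-cell lymphomas 1614 to 2463 CPM. The lines OSW, CL-1 and GL-1 had 2637 to 2663, 2740 and 2816, and 2818 CPM. The place of the 3 libraries was the same, inside the ranges of the lymphomas and under the other lines. The place of the 7 was not. For mitosis genes, at 3208 to 3566 CPM, they lay above all of these groups. For replication genes, at 4934 to 6381 CPM, they overlapped the other lines. These sums are over genes that passed the filter in the CLBL libraries.

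MHC genes had ratios on the opposite side. All 12 listed genes of the MHC protein complex were measured and all 12 ratios were above 1, with a median log2 ratio of 0.39. Without overlap, 5 of 12 were higher and 0 lower, against 7.95% and 12.4% of all genes. These genes are abundant, with 11 of 12 in the highest level bin, where 15.6% of genes were higher, and 5 among the 100 highest genes, of which 41 were higher. At least 2-fold higher were 0 of 12, against 1.03% of all genes. The summed level was 13934 CPM in CLBL-1M replicate 2, 12704 CPM in CLBL-1 replicate 3 and 12596 CPM in CLBL-1 replicate 1. The 7 ranged from 9500 to 11374 CPM with a median of 10111 CPM, and the means were 13078 ± 743 CPM (SD, n = 3) and 10265 ± 757 CPM (SD, n = 7).

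The 9 MHC class II genes among them, which serve the presentation of peptides to T helper cells, had a median log2 ratio of 0.39, with 3 of 9 higher without overlap and 0 lower (7.95% and 12.4% of all genes). Among them 8 lay in the highest level bin and 4 among the 100 highest genes. Their sum was 9767 to 10958 CPM in the 3 libraries and 7456 to 8851 CPM in the 7. The 2 of the 7 with the highest class II sums, CLBL-1M replicate 3 (8851 CPM) and CLBL-1 replicate 2 (8809 CPM), also had the lowest first components. The MHC gene with the largest difference, at a log2 ratio of 0.72, had 1590, 1355 and 1364 CPM in CLBL-1M replicate 2, CLBL-1 replicate 3 and CLBL-1 replicate 1, and 613 to 1080 CPM in the 7. In the controls, the MHC protein complex summed to 13525 to 18326 CPM. The B-cell lymphomas had 6276 to 16611 CPM and the probable T-cell lymphomas 4480 to 7315 CPM. The T-cell lines had 1111 to 1485 CPM (OSW) and 6585 to 6696 CPM (CL-1), and the B-cell line GL-1 had 2004 CPM.

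The list of antigen processing and presentation shares genes with the MHC lists. Of its 20 genes 19 were measured, 5 were higher without overlap and 0 lower, and the median log2 ratio was 0.38. Over all genes 7.95% were higher and 12.4% lower, and in the highest level bin, which held 12 of the 19, 15.6% were higher. The B cell receptor signaling pathway, which carries the antigen signal from the receptor to kinases and transcription factors, differed less. Of 17 measured genes, 10 of them in the highest level bin, 5 were higher without overlap and 0 lower, the median log2 ratio was 0.29, and 6 of 17 ratios were below 1. Its sum was 4582, 4463 and 4325 CPM in CLBL-1M replicate 2, CLBL-1 replicate 3 and CLBL-1 replicate 1, and 3864 to 4207 CPM in the 7, a difference of 11.5% of the mean. The pathway gene with the largest difference had 195, 221 and 212 CPM in the 3 against 104 to 150 CPM in the 7, at a log2 ratio of 0.73.

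**Figure D3:**
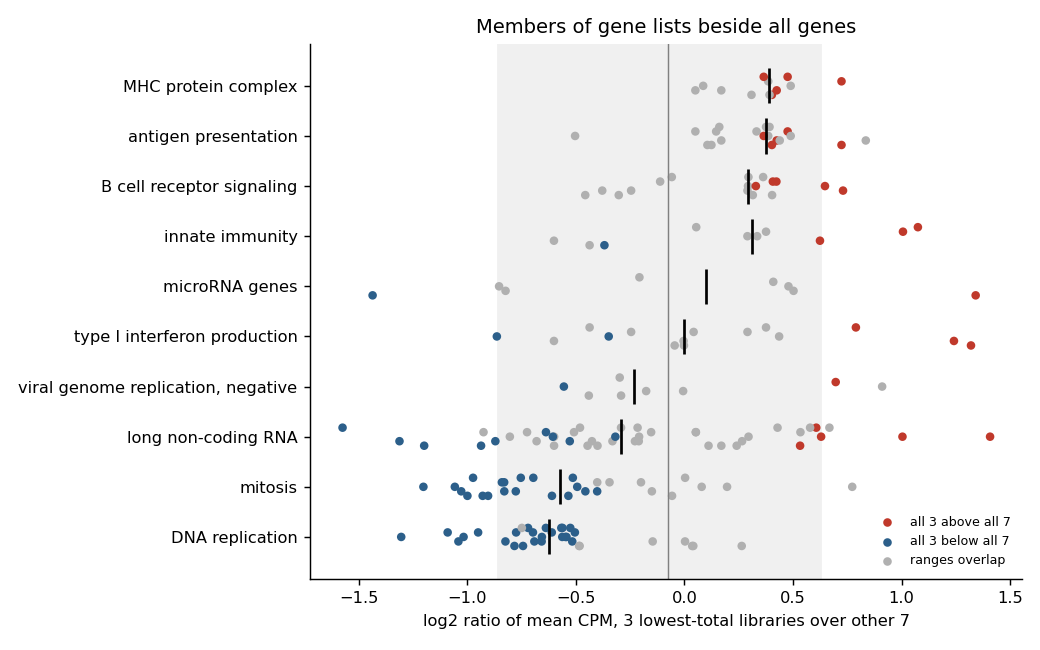
Log2 ratio of the mean CPM, 3 libraries over 7 (horizontal axis), for each measured member of 10 gene lists (rows), with black bars at the list medians, a grey line at the median of all genes (−0.08) and shading from the 5th to the 95th percentile. Replication and mitosis genes lie mostly to the left (medians −0.62 and −0.57), and the MHC protein complex lies entirely above 0 (median 0.39).

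Lists of the innate response had members on both sides. Of 15 measured genes of type I interferon production, 3 were higher and 2 lower without overlap, against 7.95% and 12.4% of all genes, the median log2 ratio was −0.00, and the sums overlapped (2989 to 3067 CPM in the 3 and 2951 to 3305 CPM in the 7). At least 2-fold higher without overlap were 2 of the 15, against 1.03% of all genes. One had 193, 129 and 118 CPM in CLBL-1M replicate 2, CLBL-1 replicate 3 and CLBL-1 replicate 1, against 36.9 to 90.4 CPM in the 7. Of 10 measured innate immunity genes, 3 were higher and 1 lower, with a median of 0.31 and overlapping sums. Among these 10, 2 were at least 2-fold higher. Of the 20 listed genes that restrain viral genome replication 8 were measured, with 1 higher, 1 lower and a median of −0.23, but their sums did not overlap, at 1201 to 1389 CPM in the 3 and 1457 to 1749 CPM in the 7.

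Non-coding genes lay on both sides. Of 97 long non-coding RNA genes that the study listed, 43 were measured, with a median log2 ratio of −0.29. Without overlap, 5 were higher and 9 lower, against 7.95% and 12.4% of all genes. At least 2-fold apart were 2 higher and 3 lower, against 1.03% and 2.16% of all genes. The 2 lowest level bins held 19 and 11 of the 43. In those bins 4.62% and 5.41% of genes were higher without overlap, and 6.04% and 9.44% lower. The 43 genes summed to 2013, 2190 and 2212 CPM in CLBL-1M replicate 2, CLBL-1 replicate 3 and CLBL-1 replicate 1, and to 2433 to 2989 CPM in the 7. Among the 43, 1 was one of the 100 genes with the highest mean CPM, and its part of the sum was not separated. Of 9 microRNA genes, 8 were measured, with 1 higher and 1 lower without overlap, against the same 7.95% and 12.4% of all genes. The lower one had 18.7, 15.1 and 15.7 CPM in these 3 libraries and 39.4 to 49.0 CPM in the 7, a tight pair of ranges at a log2 ratio of −1.44. The higher one had 76.2, 61.1 and 60.1 CPM against 14.6 to 36.3 CPM, at a log2 ratio of 1.34. Reads of poly-A RNA on a microRNA gene measure longer transcripts, not the mature microRNA.

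Of 4 further lists with few measured genes, cell-cell adherens junction (5 measured), regulation of smooth muscle cell migration (2) and extracellular matrix binding (1) had 0 genes without overlap. Negative regulation of endothelial cell migration (5 measured) had 0 higher and 1 lower.

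The genes with the largest ratios had few counts or varied among the 7. The largest ratio on the higher side belonged to ENSCAFG00000018359, with 35.3, 19.2 and 24.2 CPM in CLBL-1M replicate 2, CLBL-1 replicate 3 and CLBL-1 replicate 1 against 1.01 to 8.08 CPM (median 2.52) in the 7. Its log2 ratio was 2.98, from a mean of 20.2 reduced counts. This gene had 112 to 183 CPM in the controls and 37.2 to 338 CPM in the B-cell lymphomas, above all 10 CLBL libraries. The next, ENSCAFG00000006100, which the study listed among genes of the MAPK/ERK cascade and of apoptosis regulation, had 13.6, 32.3 and 38.4 CPM in the 3 and 0.505 to 8.58 CPM in the 7, a log2 ratio of 2.65.

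On the lower side, ENSCAFG00000013182 had 13.1, 19.2 and 22.2 CPM in CLBL-1M replicate 2, CLBL-1 replicate 3 and CLBL-1 replicate 1 and a log2 ratio of −2.51. Its 7 values spread from 28.3 to 221 CPM (median 100), with 103 ± 76.2 CPM (SD, n = 7), so the 3 are the low end of a gene that varied widely. ENSCAFG00000024645, listed by the study under defense against virus and apoptosis, had 8.08, 11.1 and 9.59 CPM in the 3 and 16.2 to 137 CPM (median 33.8) in the 7, a log2 ratio of −2.36. FLT3 (ENSCAFG00000006716), a receptor tyrosine kinase of early blood cells, was near the limit of counting, with 0.505 to 2.02 CPM in the 3 and 0.505 to 1.51 CPM in the 7.

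The same split was then read within each title, so that genes chosen in the libraries of one title were read in libraries of the other. Within CLBL-1 (replicates 1 and 3 against 2, 4 and 5), 148 genes were at least 2-fold higher without overlap and 338 lower. In CLBL-1M (replicate 2 against 1, 3, 4 and 5), 90 of the 148 (60.8%) were again higher without overlap, against 21.8% of all genes, and 259 of the 338 (76.6%) were again lower, against 34.6% of all genes. In the reverse direction, 197 of 303 genes (65.0%) chosen as higher in CLBL-1M were higher in CLBL-1, against 20.1% of all genes, and 385 of 579 (66.5%) chosen as lower were lower, against 27.7%. The median log2 ratio was smaller where the genes were read than where they were chosen, 0.91 against 1.29 for the 148 and −1.05 against −1.26 for the 338. The backgrounds are high because 1 library stands against 4 or 2 against 3, and they cover all genes, whatever their level or difference. The rule of the lowest totals used both titles, and the 3 libraries were chosen with earlier results of these data known. The agreement between titles is therefore a description and no independent test.

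**Figure D4:**
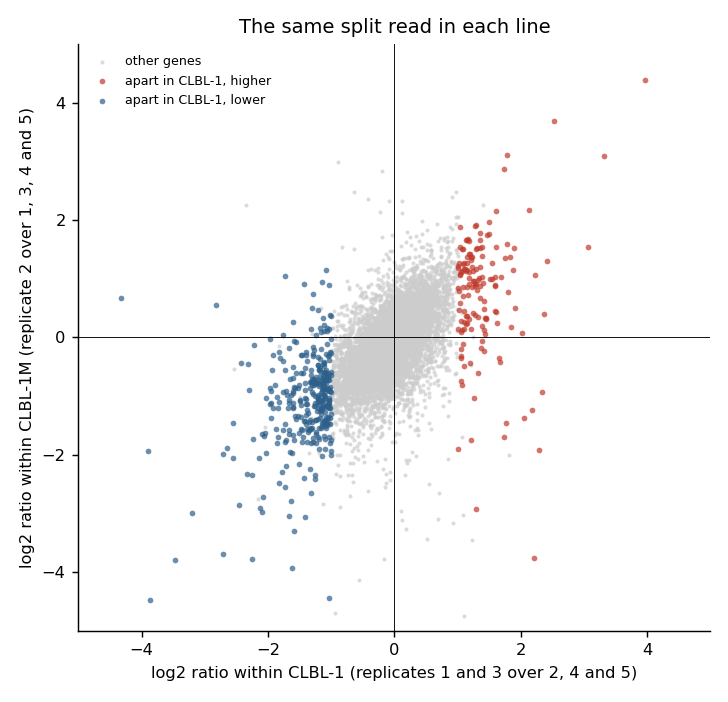
Log2 ratio of the mean CPM within CLBL-1M (vertical axis) against that within CLBL-1 (horizontal axis) for 10172 genes, with 5 genes beyond the axes, and the genes apart within CLBL-1 in color. Of the 148 genes chosen as higher within CLBL-1, 123 have a ratio above 0 within CLBL-1M, and of the 338 chosen as lower, 313 have a ratio below 0. The share of all genes on each side of 0 is not given. Within CLBL-1M, 34.6% of all genes were lower without overlap and 21.8% higher.

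The cell cycle lists gave like values in both titles. The median log2 ratio of the replication genes was −0.63 within CLBL-1 and −0.65 within CLBL-1M, and that of the mitosis genes −0.61 and −0.59. For the MHC protein complex it was 0.27 within CLBL-1 and 0.49 within CLBL-1M. The microRNA genes had medians of opposite sign, −0.15 and 0.42.

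The 3 libraries also differed among themselves. CLBL-1M replicate 2 had 225 genes (2.21%) at least 2-fold above or below both of the others, against 65 (0.639%) for CLBL-1 replicate 3 and 64 (0.629%) for CLBL-1 replicate 1. The counts of CLBL-1 replicates 1 and 3 differed with a chi-square statistic of 1.33 for each degree of freedom, the lowest of all pairs among the 10 and above the value of 1 that sampling noise alone gives, and they were kept as separate libraries. Pairs with CLBL-1M replicate 2 gave 4.05 and 4.51, and pairs between the 3 and the 7 gave 7.82 to 16.7.

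Measures of the libraries moved with the split as well. Reads outside genes made up 73.8% in CLBL-1M replicate 2, 71.8% in CLBL-1 replicate 3 and 72.1% in CLBL-1 replicate 1, against 70.4 to 71.8% in the 7. The sets met at 71.8% without overlap, and the 27 libraries of other groups spanned 68.0 to 82.9%. Reads on more than 1 gene overlapped, with 0.387 to 0.440% in the 3 and 0.363 to 0.549% in the 7. At one depth, 14432 to 14515 genes had a count in the 3 and 14102 to 14327 in the 7, so the libraries with the lowest totals had the most genes detected. The 100 highest genes of each library took 19.3 to 20.4% of its gene counts in the 3 and 17.2 to 18.2% in the 7, while the 10 highest took 5.95 to 6.50% and 4.84 to 6.13%, which overlapped.

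**Figure D5:**
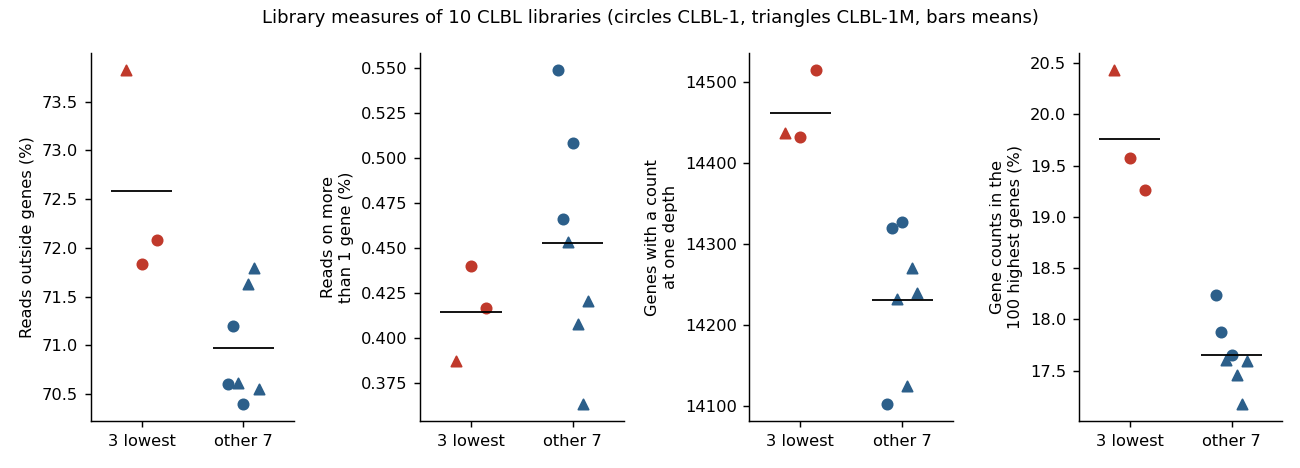
Share of reads outside genes, share of reads on more than 1 gene, genes with a count after reduction to one depth, and share of gene counts in the 100 highest genes (vertical axes, which do not start at 0) for the 3 libraries and the 7. The 3 have more genes detected (14432 to 14515 against 14102 to 14327) and a larger share in the 100 highest genes (19.3 to 20.4% against 17.2 to 18.2%), and the share on more than 1 gene overlaps.

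The median log2 ratio in the 5 level bins was −0.06, −0.11, −0.10, −0.08 and −0.03 from the lowest to the highest, while the shares of genes without overlap rose with level as given above. The authors removed duplicate reads before counting. The part of the share of reads outside genes, of the concentration in the highest genes and of the level of the genes in the list differences was not tested, and the gene total cannot be told apart from the split, since it set it. The authors prepared libraries from RNA above a set integrity number, and the paper gives no value for each library. RNA integrity, read coverage along transcripts and growth of the cultures were not analysed here.

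The 2 lines were also compared with and without the 3 libraries. In edgeR's quasi-likelihood test over all 37 libraries, CLBL-1 against CLBL-1M gave 0 of 15162 genes (0%) at an adjusted p of at most 1e-05, 201 genes at an unadjusted p under 0.05, and a lowest adjusted p of 0.242. DESeq2 gave 16. Without the 3 libraries, edgeR gave 0 of 15112 genes (0%), 194 at an unadjusted p under 0.05 and a lowest adjusted p of 0.142. DESeq2 then gave 14 of 14927 genes, 1 of them higher in CLBL-1. That comparison held 3 CLBL-1 and 4 CLBL-1M libraries. The fit estimates the spread over all groups, lymphomas of different dogs included. With only the CLBL libraries in the fit, edgeR gave 0 of 11479 genes, 506 at an unadjusted p under 0.05, and without the 3 libraries 0 of 11095 and 604. Spread between replicates may be technical, since the labels name no separate cultures.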

How the data were processed

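The authors isolated RNA from cell cultures and lymph nodes, sequenced poly-A libraries as 100-bp paired-end reads, mapped them to CanFam3.1 with BWA, removed duplicates with Picard and SAMtools, and deposited raw read counts per Ensembl gene from HTSeq 0.6.1. Whether the counting used strand is not given in the sources used here. The totals for reads outside genes and on more than 1 gene were left out of library sizes. Members and lists were chosen with earlier results of these data known, and the lists were added from the study's functional tables after the files were read. Incomplete lists were not used.

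The 10 CLBL libraries were reduced to 1980761 gene counts by random draws without replacement (numpy 2.4.6), genes with a mean of at least 10 were kept, and a gene was apart when all 3 values lay beyond all 7 and the means differed at least 2-fold. Lists with under 8 measured genes are given by counts only. Named genes are the 2 with the largest and the 2 with the smallest ratio among genes apart with a mean of at least 20 reduced counts, and 2 genes whose symbols the study pairs with identifiers. Of the identifiers, 0 matched the reference gene table, so planned symbol lists, marker checks, and gene length and GC checks were not possible, and no sequence is printed. Titles were compared with edgeR 4.0.16 in R 4.3.3 (TMM, 8 groups, highest CPM above the 40th percentile, Benjamini-Hochberg adjustment). DESeq2 1.42.0 was the alternative, and the study had used an earlier version of this tool. The rule for genes apart and the edgeR test were tried on simulated data. The alternatives are given in the closing section.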

Additional observations from a re-analysis of the deposited data

Results flagged for a closer look

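Within the 5 libraries of each title, 58 measures were examined for a library far from the others of its title, and 7 stood apart. Chance flags about 1 in 20 independent groups, a rate that does not apply here, since the lists share genes and the first component and the named genes were chosen by or separate the 3 libraries. CLBL-1M replicate 2, the only one of the 3 libraries in its title, accounted for 5 of the 7. It had the highest share of counts in the 100 highest genes (20.4%), the lowest first principal component (−38.8), the lowest summed level of kinetochore genes (1429 CPM) and of all mitosis genes (2158 CPM), and the highest level of ENSCAFG00000018359 (35.3 CPM). The other two were libraries of the 7. CLBL-1M replicate 4 had the highest sum of type I interferon production genes (3305 CPM), and CLBL-1M replicate 5 the highest level of ENSCAFG00000024645 (137 CPM).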

How the results depend on the processing

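The numbers of genes apart (105 higher, 220 lower) depended on the filter and the fold. They were 185 higher with a mean of at least 1 count, 41 higher and 108 lower with at least 50, 362 and 749 at a fold of 1.5, and 12 and 39 at a fold of 3. They stayed within 1.5 times under TMM, DESeq2 size factors, unreduced CPM and a second random draw, and ranged from 102 to 138 higher and 219 to 288 lower when each library was left out in turn. DESeq2 size factors moved the part that was lower from 67.7% to 58.7%. Under TMM and DESeq2 size factors the median log2 ratio was −0.42 and −0.39 for kinetochore genes and −0.72 and −0.68 for chromatid segregation genes, and it was −0.51 for all mitosis genes under DESeq2 size factors. Leaving out each library gave −0.54 to −0.41 for kinetochore genes, −0.62 to −0.54 for all mitosis genes, 0.25 to 0.42 for antigen presentation, 0.28 to 0.44 for MHC class II and −0.18 to 0.24 for microRNA genes, whose median was −0.18 without CLBL-1M replicate 2. The other 180 values of the list medians moved by less than 1 SD of the 7. Between CLBL-1 and CLBL-1M, edgeR gave 0 genes at an adjusted p of 1e-05 under RLE size factors, both other filters, a fit of the CLBL libraries alone and with each library left out, with and without the 3 libraries, while DESeq2 gave 16 with and 14 without them. At 0.05 edgeR gave 0 in both comparisons as reported, but 2 without CLBL-1M replicate 2, 3 without CLBL-1 replicate 4 and 4 without CLBL-1 replicate 5, and in the fit without the 3 libraries 8 without CLBL-1M replicate 1 and 2 without CLBL-1 replicate 2. With the replicate number as a block the count was 0 in both. The labels do not say that equal numbers pair libraries, and the correlation of their deviations from the group means ran from −0.30 to 0.11, so the numbers were not taken as pairs. The alternative without mitochondrial-encoded genes was not run, since no identifier could be matched to them. The cause of these differences between settings was not tested. Between 1980761 and 3414487 gene counts per library limit the genes with few counts, and all ranges rest on 3 and 7 libraries.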
